A study of Homo sapiens with 6 samples.

Results

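The collagen genes were described in 6 RNA libraries of MDA-MB-231BR, a brain-seeking subline of MDA-MB-231, an established line of human breast cancer cells. A collagen gene was any gene of the deposited table whose symbol reads COL, a number, A and a number. Of 17721 genes in the table, 41 met this rule, and 23 of them had enough reads to be tested. The table has no row for COL6A5, COL6A6 or COL9A1. Both groups carried a stably integrated lentiviral short hairpin RNA (shRNA) and had been selected with an antibiotic. The control group (genotype Control, treatment Control shRNA) and the knockdown group (genotype ACSS2 knockdown, treatment ACSS2 shRNA) each had 3 libraries. The labels number them 1 to 3 in both groups. The submitters call the libraries of a group biological replicates, but their labels leave out how many hairpin sequences were used. Unpaired p-values measure the spread between these cultures of a single cell line. Paired p-values, with libraries matched by number, measure only the spread left once differences between the numbers are removed. The cells grew as monocultures, and a change in RNA per cell cannot be told apart from a change in the mix of cells.

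Collagens are extracellular matrix proteins built from 3 chains wound into a helix, and the genes encode the chains. Fibrillar collagens (types I, II, III, V, XI, XXIV and XXVII) form the tension-bearing fibrils of connective tissue. Type IV forms the sheet-like network of basement membranes, where types XV and XVIII are also found. The other types include the beaded filaments of type VI, the fibril-associated collagens with interrupted helices (FACIT), the short chain network collagens, the anchoring fibrils of type VII and collagens that span the cell membrane. ACSS2, the targeted enzyme, makes acetyl-CoA from acetate in the cytosol and nucleus, and the study asked what ACSS2 contributes to the growth of breast cancer metastases in the brain.

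Promoter sequences of 4 collagen genes are shown. Their RNA was called higher with ACSS2 shRNA by edgeR when libraries were paired by number, and for none of them without pairing. COL5A1 and COL6A2 are a GC-rich fibrillar and beaded filament gene. COL7A1 and COL17A1 are an anchoring fibril and a membrane gene with fewer G and C. The sequences are the bases 5′ of the RefSeq start site on GRCh38.p14, on the strand of the gene and read 5′ to 3′, up to the first annotated exon base. The stretches of COL5A1, COL6A2 and COL17A1 (221, 235 and 173 bases) therefore end before that start site. The stretch of COL7A1 (250 bases) reaches it. The COL5A1 stretch is chr9:134641553-134641773 on the plus strand and is 75.6% G and C, with GGGCGG, the core of a GC box, capitalised where it lies on the opposite strand. The others are chr21:46097862-46098096 on the plus strand (COL6A2, 79.6% G and C), chr3:48595330-48595579 on the minus strand (COL7A1, 60.8%) and chr10:104085958-104086130 on the minus strand (COL17A1, 40.5%), with TATAAA, the core of a TATA box, capitalised on either strand.
COL5A1: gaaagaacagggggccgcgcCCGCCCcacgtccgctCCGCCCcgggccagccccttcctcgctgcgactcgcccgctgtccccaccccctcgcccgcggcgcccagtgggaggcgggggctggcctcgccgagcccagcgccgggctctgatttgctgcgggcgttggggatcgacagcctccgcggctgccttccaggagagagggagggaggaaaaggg
COL6A2: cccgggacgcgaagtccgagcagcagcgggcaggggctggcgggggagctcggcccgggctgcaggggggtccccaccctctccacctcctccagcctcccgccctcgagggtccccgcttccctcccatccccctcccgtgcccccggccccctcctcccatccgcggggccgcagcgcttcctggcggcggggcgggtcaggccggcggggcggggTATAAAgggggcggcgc
COL7A1: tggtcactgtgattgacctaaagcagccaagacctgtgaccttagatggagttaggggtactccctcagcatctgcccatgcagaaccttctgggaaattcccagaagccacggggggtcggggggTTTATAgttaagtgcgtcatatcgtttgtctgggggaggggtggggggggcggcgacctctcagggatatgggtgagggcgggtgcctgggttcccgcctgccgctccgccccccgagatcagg
COL17A1: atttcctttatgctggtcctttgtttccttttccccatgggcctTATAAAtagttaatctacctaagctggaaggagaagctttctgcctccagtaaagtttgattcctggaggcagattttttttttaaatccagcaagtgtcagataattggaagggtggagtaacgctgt
The TATAAA of COL6A2 begins at position -32 from the start site, that of COL17A1 at -206, and COL7A1 holds it on the opposite strand at -124. GGGCGG or its complement also occurs 4 times in the COL6A2 stretch and 3 times in that of COL7A1, not capitalised there. All these are matches of letters, and whether any works as a TATA box or GC box was not tested.

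Windows of 250 bases before to 50 bases after the start were found for 30 of the 41 genes and 18 of the 23 tested. GGGCGG or its complement lay in a window of 13 of those 18 genes, CCAAT or its complement in 6 and TATAAA or its complement in 5. Of all 35116 windows, 45.0% held the first, 34.6% the second and 11.5% the third. The motifs were counted separately, and a gene with several windows was counted if any held the motif. The counts of genes and the shares of windows are therefore unlike measures, and no difference is read from them. COL4A1 and COL4A2 are transcribed away from each other on chromosome 13. Their RefSeq start sites, at 110307157 on the minus strand and 110307284 on the plus strand, lie 127 bases apart, and their windows share 226 bases.

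Levels were compared between genes in TPM, which is scaled by transcript length. Of the 41 genes, 4 had a mean of at least 100 TPM over the 6 libraries, 10 at least 10 TPM and 18 at least 1 TPM. The order began with COL6A2 (mean 151 TPM), COL13A1 (143 TPM), COL6A1 (125 TPM) and COL8A1 (108 TPM), then COL4A2 (55.4 TPM) and COL5A1 (23.7 TPM). The ranges of COL6A2, COL13A1 and COL6A1 overlapped, and so did those of COL6A1 and COL8A1. The lowest COL8A1 library (75.5 TPM) stood above the highest COL4A2 library (68.3 TPM), the only pair of neighbours among the tested genes with separate ranges over all 6 libraries. The 6 leading genes made up between 85.1% and 88.9% of the collagen TPM of each library.

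**Figure D1:**
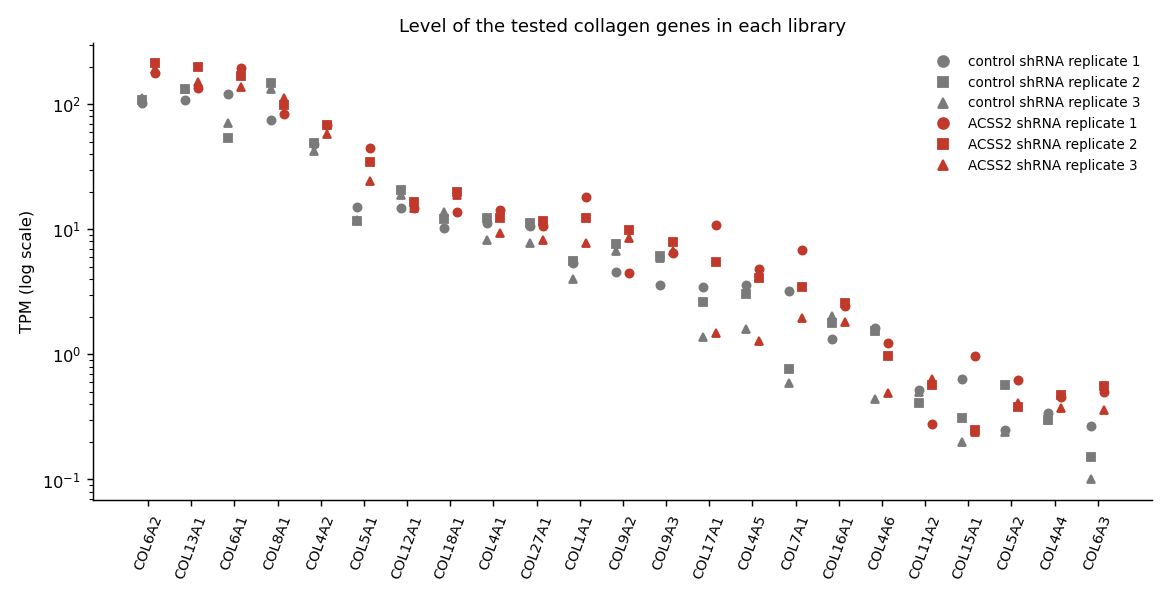
TPM of the 23 tested collagen genes on a log axis, by gene in order of the mean, with 1 point per library (grey for control shRNA, red for ACSS2 shRNA, marker shape for the replicate number). COL6A2, COL13A1, COL6A1 and COL8A1 lie between 53.5 and 212 TPM, and the 5 genes at the right end lie below 1 TPM.

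The other 18 genes did not reach the low-count filter, and none had more than 14 counts in a library. COL2A1, COL5A3 and COL14A1 had 0 counts in all 6 libraries. The other 15, which include COL3A1, the chain of type III, and COL11A1, a minor fibrillar chain, had a count in at least 1 library, and their levels could not be compared between groups at this depth (15048290 to 18608114 counts per library).

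Chains that assemble with each other differed widely in level. COL1A1, a chain of type I collagen, was at 5.43, 5.55 and 3.99 TPM in the control libraries 1, 2 and 3, whereas COL1A2, its usual partner, had 0 counts there and 3, 0 and 4 counts in the ACSS2 shRNA libraries. COL5A1 was between 20.6 and 91.6 times the level of COL5A2 in every library. COL6A3, the long chain of type VI collagen, stayed between 0.10 and 0.56 TPM in libraries where COL6A1 and COL6A2 were between 53.5 and 212 TPM. COL8A1 exceeded COL8A2 at least 330-fold in each library, on 2 to 14 counts of COL8A2. The type IV chains were nearer to each other. COL4A2 was 4.29, 3.94 and 5.15 times COL4A1 in the control libraries and 4.79, 5.53 and 6.12 times in the ACSS2 shRNA libraries. These ratios overlapped between the groups (exact two-sided permutation test, p = 0.2; the smallest p for 3 against 3 is 0.1).

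**Figure D2:**
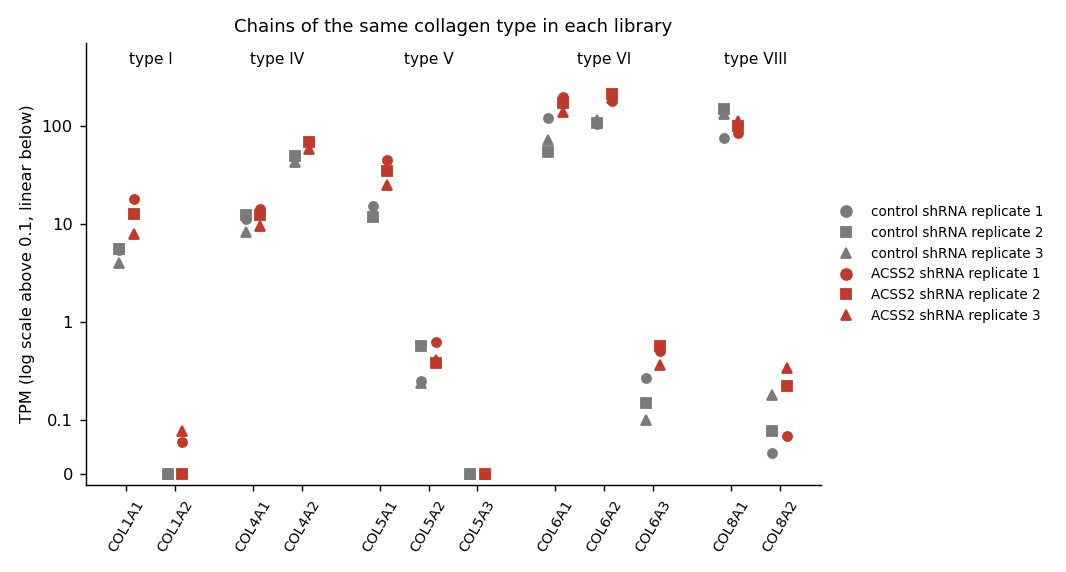
TPM of the chains of collagen types I, IV, V, VI and VIII in each library, on an axis that is logarithmic above 0.1 and linear below. COL1A2, COL5A2, COL6A3 and COL8A2 lie below 1 TPM in all 6 libraries while COL1A1, COL5A1, COL6A1, COL6A2 and COL8A1 of the same types lie between 3.99 and 212 TPM.

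The summed level of collagen transcripts was higher with ACSS2 shRNA. The summed TPM of the 41 genes was 545, 589 and 577 in control libraries 1, 2 and 3 and 819, 893 and 758 in the ACSS2 shRNA libraries. The lowest ACSS2 shRNA library was above the highest control. The means were 570 ± 22.6 and 823 ± 67.3 TPM (SD, n = 3), a fold of 1.44, with the smallest p that 3 against 3 allows (exact two-sided permutation test, p = 0.1). TPM runs higher in the ACSS2 shRNA libraries over genes at large: the median log2 fold change of all 13003 tested genes was 0.106 on the log2(TPM + 1) scale and 0.02 on the count scale used below, both with replicate number as a block. Group comparisons therefore use CPM, which is the read count scaled by the TMM-adjusted library size. In CPM the sum rose from 1341 ± 39.1 to 1839 ± 77.3 (SD, n = 3), a fold of 1.37, with folds of 1.35, 1.46 and 1.3 in pairs 1, 2 and 3. Most of this rise lay in a few abundant genes. Mean CPM went from 200 to 375 for COL6A1, from 207 to 347 for COL6A2 and from 63 to 154 for COL5A1. COL8A1, also abundant, went the other way, from 204 to 159.

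By class, the summed CPM of the fibrillar genes was 140, 117 and 106 in the controls and 287, 233 and 178 with ACSS2 shRNA. The beaded filament genes summed to 506, 319 and 400 against 738, 737 and 699. The basement membrane genes, mostly COL4A2, summed to 284, 270 and 246 against 341, 343 and 314. In these classes the groups did not overlap, with folds of 1.92, 1.77 and 1.25. The membrane-spanning genes, nearly all COL13A1, summed to 198, 218 and 233 against 237, 316 and 253, also without overlap (fold 1.24). For COL13A1 alone the groups overlapped. The anchoring fibril class is COL7A1 alone, given below. The FACIT genes went from 116 ± 16.5 to 101 ± 6.28 CPM (SD, n = 3), and from 31.5 ± 6.27 to 32.7 ± 4.35 TPM, so their direction depends on the scaling. The short chain network genes, nearly all COL8A1, summed to 135, 243 and 234 CPM against 130, 154 and 194 CPM, lower in 3 of 3 pairs on this scale and in 2 of 3 in TPM.

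Gene by gene, the result depended on whether libraries with the same number were paired. Without pairing, the quasi-likelihood test of edgeR called 0 of 23 collagen genes higher and 0 lower at an adjusted p under 0.05, where 0.0231% of all 13003 tested genes were called higher and 0.0461% lower; 6 collagen genes had an unadjusted p under 0.05, as did 14% of all tested genes. Unpaired DESeq2 called 3 collagen genes higher and 0 lower, against 1.5% and 2.14% of the 13292 genes with an adjusted p. With the replicate number as a block, edgeR called 9 of 23 collagen genes higher and 0 lower, against 12.7% of all tested genes higher and 12.4% lower. At an unadjusted p under 0.05 the blocked fit held 11 of 23 collagen genes, of which COL8A1 and COL12A1 were lower, and 38% of all tested genes. The median log2 fold change of the 23 genes was 0.35 in the paired fit and 0.37 in the unpaired fit, and over all tested genes it was 0.02 in both. The groups did not overlap in CPM for 7 of the 23 genes on the higher side, against 10.7% of all tested genes. Replicate number itself differed in 12 of the 23 genes, against 38.7% of all tested genes.

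The 9 genes came from 5 classes: 2 of 5 tested fibrillar genes, 2 of 7 basement membrane genes, 3 of 3 beaded filament genes, the anchoring fibril gene and 1 of 2 membrane-spanning genes. None of the 4 tested FACIT genes was called, nor was COL8A1. In the authors' deposited table, 3 collagen genes were higher at a q under 0.05 and 0 lower, against 1% and 1.51% of the 16861 genes with a q. They were COL5A1, COL6A2 and COL1A1, with log2 fold changes of 1.26, 0.72 and 1.24 and q of 0.000344, 0.0063 and 0.00699.

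**Figure D3:**
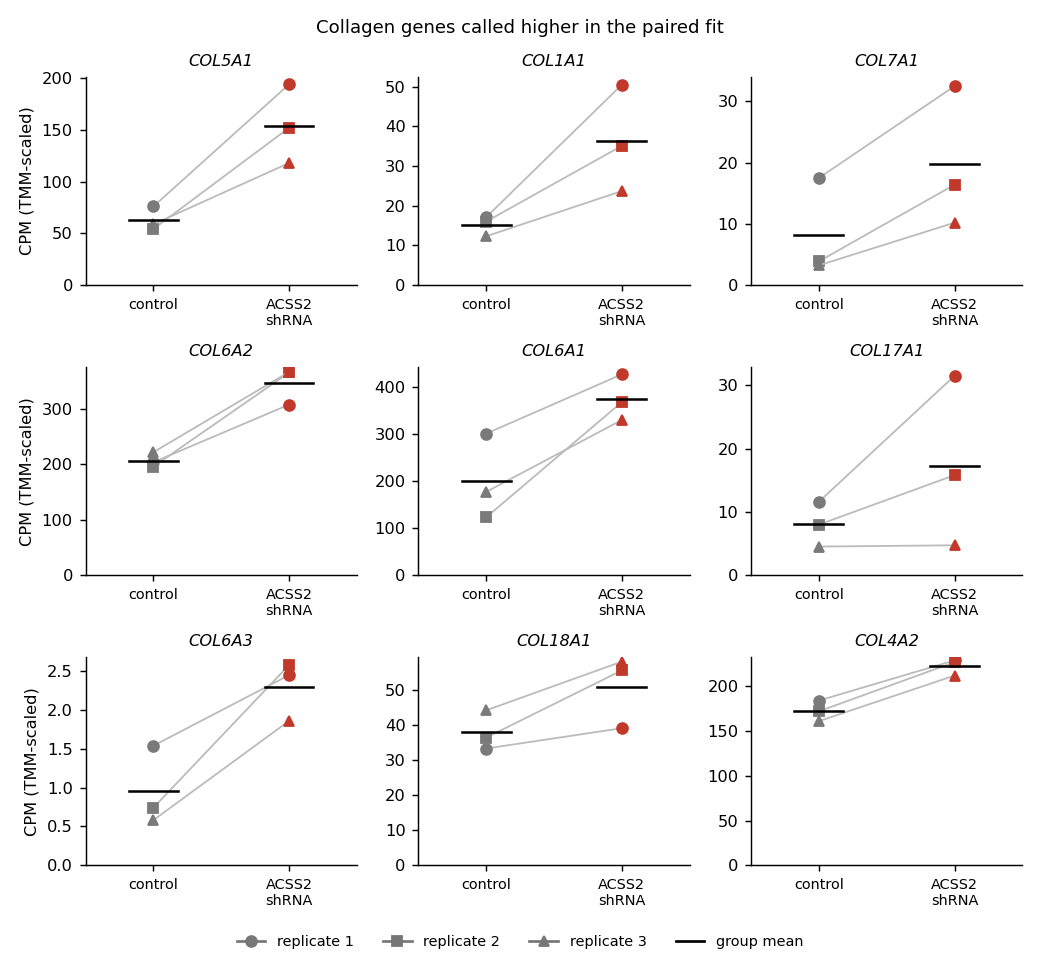
CPM (y axis, from 0) of the 9 collagen genes called higher in the paired fit, with lines joining the control and ACSS2 shRNA libraries of the same replicate number and bars for the group means. Every line rises, and for COL17A1 the line of replicate 3 is nearly flat (4.52 to 4.72 CPM).

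Among the fibrillar genes, COL5A1 encodes the main chain of type V collagen, which sits inside type I fibrils and limits their width. In the deposited table it lies at 9q34.3, chr9:134636967-134844843, a span that begins upstream of the RefSeq start site and holds the promoter stretch shown above. It was at 76.0, 54.2 and 58.8 CPM in control libraries 1, 2 and 3 and at 194, 152 and 118 CPM with ACSS2 shRNA. All ACSS2 shRNA libraries were above all controls. With pairing the log2 fold change was 1.28 (SE 0.122, adjusted p = 5.1e-05 by edgeR), and without it 1.29 (SE 0.226, adjusted p = 0.0906).

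COL1A1 encodes the more abundant chain of type I collagen, the main fibril of bone, skin and scar (17q21.33, chr17:50184096-50201649). It was at 17.1, 16.0 and 12.3 CPM in the controls and at 50.5, 35.1 and 23.7 CPM with ACSS2 shRNA, again without overlap. Its paired log2 fold change was 1.22 (SE 0.144, adjusted p = 0.00017 by edgeR), against 1.27 unpaired (adjusted p = 0.118). In both genes replicate 1 was the highest library of its group.

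The other 3 tested fibrillar genes were not called. COL5A2, the partner of COL5A1, was at 0.91, 1.94 and 0.90 CPM against 2.00, 1.19 and 1.43 CPM, with overlapping groups and opposite signs between pairs (paired log2 fold change 0.33, SE 0.375). COL11A2 and COL27A1, chains of types XI and XXVII, had paired log2 fold changes of 0.34 and -0.07. COL27A1 was more abundant than COL1A1 in the controls, at 7.84 to 11.24 TPM against 3.99 to 5.55 TPM.

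Among the basement membrane genes, 1 chain of the main type IV pair was called. COL4A2 was at 184, 172 and 161 CPM in the controls and at 229, 227 and 212 CPM with ACSS2 shRNA, without overlap. The estimate for COL4A2 in the paired fit was 0.37 on the log2 scale (SE 0.11, adjusted p = 0.0273 by edgeR). COL4A1, which assembles with it, was at 43.5, 44.4 and 31.4 CPM against 48.4, 41.5 and 35.1 CPM, with overlapping groups and a paired log2 fold change of 0.07 (SE 0.118, adjusted p = 0.693). The difference between the 2 genes is the ratio given above, which overlapped between the groups and was higher in 3 of 3 pairs.

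COL18A1, whose C-terminal fragment is endostatin, was at 33.3, 36.4 and 44.2 CPM in the controls and 39.1, 55.6 and 58.1 CPM with ACSS2 shRNA. The groups overlapped, and each pair was higher. Its change in the paired fit was 0.41 on the log2 scale (SE 0.12, adjusted p = 0.0245 by edgeR). The calls of COL4A2 and COL18A1 had the highest adjusted p of the 9, and both were lost without replicate 2 and without replicate 3. COL4A2 was also lost on log2(TPM + 0.1), and COL18A1 with paired DESeq2. Their adjusted p reached 0.265 and 0.311 over 8 paired alternatives. The other tested members, COL4A4, COL4A5, COL4A6 and COL15A1, had paired log2 fold changes from -0.49 to 0.45, none called, and all were below 5 TPM.

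The 3 tested genes of type VI collagen, whose beaded filaments lie close to cells and bind basement membranes, all rose in the paired fit. COL6A1 was at 301, 123 and 177 CPM in the controls and at 427, 368 and 330 CPM with ACSS2 shRNA. Control library 1 was well above the other controls but below every ACSS2 shRNA library. In the paired fit COL6A1 rose by 0.99 on the log2 scale (SE 0.17, adjusted p = 0.00143 by edgeR).

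COL6A2 was at 204, 196 and 222 CPM in the controls and at 308, 366 and 367 CPM with ACSS2 shRNA, with a wide gap between the groups. In the paired fit COL6A2 rose by 0.74 on the log2 scale (SE 0.118, adjusted p = 0.000929 by edgeR), against 0.74 unpaired (adjusted p = 0.104). COL6A1 and COL6A2 are neighbours at 21q22.3, chr21:45981749-46005049 and chr21:46098071-46132849, with 93021 bases between them. The ratio of COL6A2 to COL6A1 in TPM was 0.853, 2.01 and 1.58 in the controls and 0.907, 1.25 and 1.4 with ACSS2 shRNA, so replicate 1 stood apart in both groups.

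COL6A3 was scarce, at 1.54, 0.741 and 0.581 CPM in the controls and 2.45, 2.58 and 1.86 CPM with ACSS2 shRNA, on 164 counts over the 6 libraries. The groups did not overlap. The paired log2 fold change was 1.30 (SE 0.332, adjusted p = 0.0135 by edgeR), and the call was lost in 3 of 8 paired alternatives, where its log2 fold change ranged from 0.33 to 1.73.

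COL7A1 encodes the anchoring fibrils that tie basement membranes to the tissue below, and it had the largest paired change of the tested collagen genes. It was at 17.5, 3.88 and 3.23 CPM in the controls and at 32.5, 16.4 and 10.2 CPM with ACSS2 shRNA. Control library 1 lay above ACSS2 shRNA libraries 2 and 3, so the groups overlapped, but each pair was higher, by 0.89, 2.08 and 1.66 on the log2 scale. With pairing the log2 fold change was 1.47 (SE 0.205, adjusted p = 0.000438 by edgeR) and without it 1.26 (SE 0.677, adjusted p = 0.447). COL7A1 also differed between replicate numbers (adjusted p = 0.000153).

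COL17A1 encodes a membrane-spanning collagen of hemidesmosomes, the junctions that fix epithelial cells to a basement membrane. It was at 11.6, 7.98 and 4.52 CPM in the controls and 31.5, 15.8 and 4.72 CPM with ACSS2 shRNA. Pairs 1 and 2 differed by 1.44 and 0.98 on the log2 scale and pair 3 by 0.06. COL17A1 rose by 0.93 on the log2 scale in the paired fit (SE 0.214, adjusted p = 0.00775 by edgeR), and the call was lost on log2(TPM + 0.1) and without replicate 1, where the log2 fold change was 0.60. COL13A1, a membrane-spanning collagen of cell adhesion sites and the neuromuscular junction, was at 186, 210 and 228 CPM against 205, 300 and 248 CPM. It was higher in 3 of 3 pairs, but the groups overlapped and it was not called (paired log2 fold change 0.26, SE 0.122, adjusted p = 0.138).

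The 2 abundant genes with the opposite sign were not called. COL8A1, a network collagen of vessel walls and the cornea, was at 135, 243 and 234 CPM in the controls and 130, 153 and 193 CPM with ACSS2 shRNA (paired log2 fold change -0.33, SE 0.13, adjusted p = 0.0782 by edgeR). COL12A1, a FACIT collagen of type I fibrils, was at 81.2, 104 and 99.4 CPM against 73.9, 74.6 and 77.5 CPM (paired log2 fold change -0.32, SE 0.113, adjusted p = 0.0526). For COL12A1 the groups did not overlap in CPM. It was called lower with DESeq2-type size factors or no low-count filter, and both genes were called lower without replicate 1. The other tested FACIT genes, COL9A2, COL9A3 and COL16A1, had paired log2 fold changes of 0.14, 0.35 and 0.39 and were not called.

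**Figure D4:**
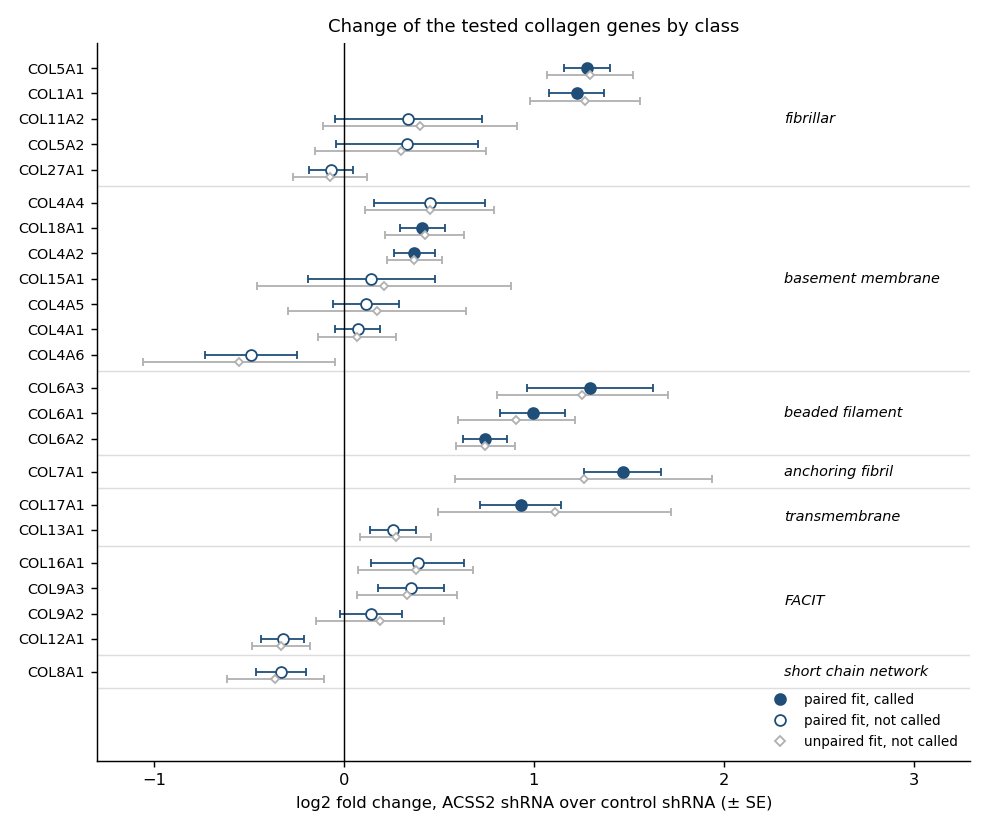
Log2 fold change with its standard error for the 23 tested collagen genes, by class, from the paired fit (circles, filled where called) and the unpaired fit (diamonds, none called). The estimates of both fits lie close together while the unpaired error bars are longer, and the called genes lie between 0.37 and 1.47.

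The 5 genes called in all 8 paired alternatives were COL5A1, COL1A1, COL6A1, COL6A2 and COL7A1. Reads of overlapping genes are a limit for some genes, since the labels do not say whether counting used strand. In the table's coordinates COL5A1, COL6A1, COL6A2, COL6A3 and COL17A1 overlap no other listed gene, whereas COL4A2, COL7A1, COL1A1 and COL18A1 do. Some of the table's spans reach too far, since MUC4 is listed across both COL7A1 at 3p21.31 and COL8A1 at 3q12.1, so an overlap by these spans need not be an overlap of the genes.

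Genes that act on collagen were taken from 5 lists with 74 members, all in the table, of which 65 were tested. The paired edgeR fit called 23 higher (35.4%) and 4 lower (6.15%), against the 12.7% and 12.4% of all tested genes, and the unpaired fit called 0 in either direction, with 15 of 65 at an unadjusted p under 0.05 (14% of all tested genes). Unpaired DESeq2 called 4 higher and 0 lower, against the 1.5% and 2.14% given above. The median log2 fold change of the 65 genes in the paired fit was 0.26. The values below are from the paired fit. Without replicate 2 it called 9 members higher, which were 2 genes of modification, 2 of processing and cross-linking, 2 receptors, 1 gene of degradation and 2 of the TGF-beta axis.

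In the cell, collagen chains are hydroxylated, glycosylated and folded before they leave the endoplasmic reticulum. Of 23 tested genes for these steps, 10 rose (43.5%) and 2 fell (8.7%), against 12.7% and 12.4% of all tested genes. On log2(TPM + 0.1), 5 rose. COLGALT1, which attaches galactose to hydroxylysine, went from 546, 461 and 490 CPM to 886, 778 and 873 CPM, without overlap (log2 fold change 0.76, SE 0.121, adjusted p = 0.000938). SERPINH1, the collagen chaperone HSP47, went from 268, 146 and 138 CPM to 355, 224 and 223 CPM, higher in each pair (0.57, SE 0.116, adjusted p = 0.00385; 0.0634 without replicate 2). P3H2, a prolyl 3-hydroxylase that acts on type IV collagen, was at 120, 135 and 192 CPM in the controls and at 61.1, 85.3 and 122 CPM with ACSS2 shRNA, lower in each pair (-0.76, SE 0.115, adjusted p = 0.000688). The other called gene on the lower side was CRTAP, a partner of P3H1, at -0.46, a call lost in 3 of 8 paired alternatives.

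Outside the cell, propeptides are trimmed and the chains cross-linked. Of 10 tested genes of these steps, 2 rose (20%) and 0 fell, against 12.7% and 12.4% of all tested genes. BMP1, the protease that removes the C-terminal propeptide of fibrillar procollagens, went from 39.0, 16.8 and 15.7 CPM to 80.8, 41.1 and 28 CPM (log2 fold change 1.06, SE 0.128, adjusted p = 0.00019). LOX, which oxidises lysine for cross-links, went from 217, 124 and 189 CPM to 345, 276 and 309 CPM, without overlap (0.84, SE 0.128, adjusted p = 0.000699). PCOLCE, an enhancer of BMP1, was not called (0.35, SE 0.199, adjusted p = 0.223).

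Of 12 tested collagen receptors, 5 rose (41.7%) and 0 fell, against 12.7% and 12.4% of all tested genes. ADGRG1, an adhesion receptor that binds type III collagen, went from 62.8, 88.2 and 122 CPM to 173, 258 and 173 CPM, without overlap (log2 fold change 1.17, SE 0.174, adjusted p = 0.000647). ITGA1, an integrin chain that prefers type IV collagen, went from 34.8, 20.4 and 12.3 CPM to 46.0, 44 and 18.2 CPM (0.69, SE 0.149, adjusted p = 0.00563; 0.115 without replicate 2). ITGA11, an integrin chain for fibrillar collagens, was scarce, at 0.228, 0.513 and 1.74 CPM against 0.724, 4.46 and 4.47 CPM (2.01, SE 0.375, adjusted p = 0.00238). ITGB1, the shared partner chain of these integrins, was not called (0.24, adjusted p = 0.170).

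Of 9 tested genes of collagen breakdown and its inhibitors, 2 rose (22.2%) and 2 fell (22.2%), against 12.7% and 12.4% of all tested genes. The metalloproteinase inhibitors moved in opposite directions. TIMP1 went from 432, 303 and 471 CPM to 667, 637 and 820 CPM, without overlap (log2 fold change 0.83, SE 0.129, adjusted p = 0.000817). TIMP3, which binds to the matrix, went from 167, 116 and 187 CPM to 68.1, 96.3 and 105 CPM, also without overlap (-0.80, SE 0.160, adjusted p = 0.00363). TIMP2 went from 588, 390 and 546 CPM to 320, 305 and 441 CPM, lower in each pair (-0.51, SE 0.137, adjusted p = 0.0165). TIMP2 was not called on either TPM scale, nor TIMP3 on log2(TPM + 0.1). The other gene called higher was MMP9, a gelatinase, at 36.6, 8.55 and 11.4 CPM against 28.8, 49.6 and 29.8 CPM (1.14, SE 0.370, adjusted p = 0.0388). MMP9 was lower in pair 1, and its call was lost in 4 of 8 paired alternatives. MMP1, an interstitial collagenase, was not called (-0.02, adjusted p = 0.957).

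Transforming growth factor beta (TGF-beta) induces collagen genes in many cell types. Of 11 tested genes of its axis, 4 rose (36.4%) and 0 fell, against 12.7% and 12.4% of all tested genes. TGFBR2, its type II receptor, went from 380, 253 and 287 CPM to 926, 624 and 506 CPM, without overlap (log2 fold change 1.14, SE 0.134, adjusted p = 0.000175). SMAD7, a feedback inhibitor, went from 4.44, 2.17 and 1.87 CPM to 9.35, 7.48 and 4.28 CPM (1.34, SE 0.221, adjusted p = 0.00118). TGFB1, the ligand, went from 692, 461 and 682 CPM to 802, 837 and 942 CPM (0.51, SE 0.142, adjusted p = 0.0199), and its call was lost without replicate 2 (highest adjusted p 0.395). The target gene CCN2 was not called, at -0.10 (adjusted p = 0.639).

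**Figure D5:**
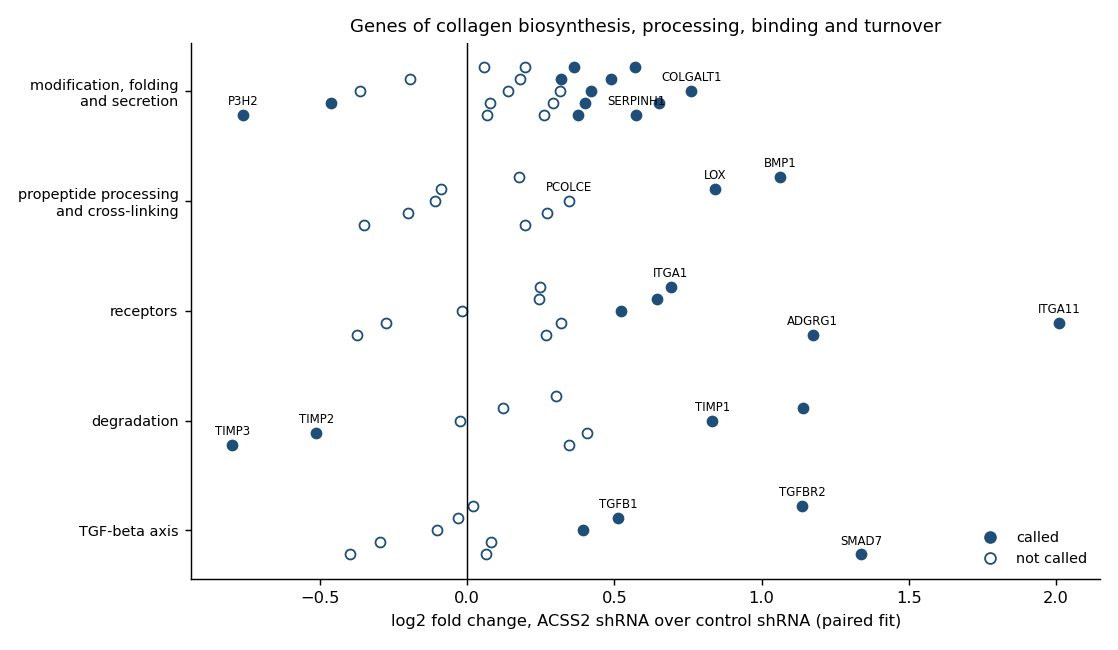
Paired log2 fold change of the 65 tested genes of the 5 lists, by list, filled where called, with the 3 members of smallest p in each list named. Called genes lie mostly to the right of 0 (23 higher, 4 lower), with TIMP3, TIMP2 and P3H2 among those on the left.

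The targeted gene varied between libraries. ACSS2 was at 76.3, 71.2 and 164 CPM in the controls and at 11.1, 50.5 and 88.7 CPM with ACSS2 shRNA. ACSS2 shRNA library 3 lay above control libraries 1 and 2, so the groups overlapped, while each pair was lower. The paired log2 fold change was -1.31 (SE 0.300, adjusted p = 0.00758 by edgeR; not called by paired DESeq2 or on log2(TPM + 0.1)) and the unpaired one -1.05 (adjusted p = 0.504). Of the markers used to check the cell label, VIM, a mesenchymal filament, was between 5449 and 6820 TPM and the epithelial cadherin CDH1 at most 0.05 TPM. Of the other genes listed as low in this line, ESR1 and PGR had means below 1 TPM, while KRT8, ERBB2 and EPCAM had means of 442, 30.6 and 3.13 TPM. Of the 5 mesenchymal genes, CD44 and CAV1 were lower in the paired edgeR fit (log2 fold change -0.57 and -0.35, adjusted p = 0.00598 and 0.0348). Of 8 fibroblast and pericyte markers, 5 had a mean below 1 TPM. Their sum was 11.7 to 22.3 TPM in the controls and 6.15 to 15.9 TPM with ACSS2 shRNA, most of it ACTA2 (paired log2 fold change -0.94, adjusted p = 0.00327), and the fibroblast genes DCN and LUM were at most 0.11 TPM in any library. The part of these markers in the collagen results was not tested.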

How the data were processed

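The deposited table holds, per the file headers, expected counts (estimated reads per gene), TPM, and the authors' own DESeq2 comparison as a log2 fold change with p-value and q-value. The submitters' processing notes name RSEM, Bowtie2 and HISAT, with versions not given in the sources used here. Libraries were made from oligo(dT)-selected RNA and sequenced on DNBSEQ, per the labels' protocols. Chromosome accessions belong to GRCh38. The table held 565 spilled text lines, which were left out, and 26 symbols turned into dates, which were restored by gene ID; CCN2 is listed there under an older symbol. Expected counts were rounded and tested with edgeR 4.0.16 in R 4.3.3 (quasi-likelihood F test, TMM, filterByExpr with minimum count 10 and total 15, Benjamini-Hochberg over 13003 genes), without and with replicate number as a block. Standard errors (SE) were taken as the size of the log2 fold change over the square root of its F.

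Pairing comes from the replicate number in the labels, which the groups share. Deviations from group means correlated by 0.716, 0.494 and 0.740 between libraries of the same number, and at most by -0.01 between others. Deviations within a group cancel out, so positive values for the same number pull those between different numbers down. The latter are therefore no separate check of the pairing. Both fits are given, since most calls depend on the block. The biological coefficient of variation was 26.6% without and 11.8% with the block. Alternatives used DESeq2 1.42.0, other size factors, no filter, limma 3.58.1 on log2(TPM + 1) and log2(TPM + 0.1), and left-out libraries. The fits were also run on simulated counts that kept the replicate levels of the data. That run could not test whether the block is warranted. Named are collagen genes called in either fit, the 8 with the highest mean TPM, the tested partner chains, and 3 genes per list by paired p; others were named after their values were seen. Members and lists were chosen with earlier results of these data known. Promoter sequences are from RefSeq.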

Additional observations from a re-analysis of the deposited data

How the results depend on the processing

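Without a block, 0 collagen genes were called higher or lower by edgeR with TMM or with DESeq2-type size factors, without the low-count filter, by limma on either TPM scale or without any library or replicate number. Unpaired DESeq2 called 3 higher, and the replicate block 9. In the paired family the number higher was 9 with edgeR and TMM, 7 with DESeq2, 9 with other size factors, 9 without the filter, 8 and 7 on log2(TPM + 1) and log2(TPM + 0.1), and 6 to 8 with a replicate number left out. The number lower was 1 with other size factors, 1 without the filter, and 0 to 2 with a replicate number left out; the cause was not tested. For the genes that act on collagen, unpaired edgeR called 0 higher, unpaired DESeq2 4, and the replicate block 23 higher and 4 lower. In the paired family 15 were higher on log2(TPM + 0.1) and 9 to 25 with a replicate number left out. The number lower was 2 on log2(TPM + 1) and 1 on log2(TPM + 0.1). On log2(TPM + 1) with the block, 2082 of all genes were called higher and 982 lower, against 1657 and 1609 by edgeR, a comparison in which both the unit and the test differ. The fold of the summed collagen level was 1.38 to 1.5 with a library left out, 1.43 as a share of counts, and 1.37 in CPM, an alternative chosen after seeing the data. COL4A1 and COL5A2 changed direction. Leaving out a library moved the unpaired log2 fold change of COL4A1 to -0.079 (control replicate 3) or -0.068 (ACSS2 shRNA replicate 1), and leaving out replicate number 1 moved that of COL5A2 to -0.131 unpaired and -0.094 with the replicate block. Leave-outs raised them to as much as 0.175 and 0.879 unpaired.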

Other observations

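Some genes outside the collagen family encode proteins with a collagen-like stretch. A list of 32 such genes was made after the collagen values were seen, and 10 were tested. The paired edgeR fit called 1 higher and 1 lower, against 12.7% and 12.4% of all tested genes. CTHRC1, a secreted protein of remodelled matrix, was called higher (log2 fold change 2.55, SE 0.568, adjusted p = 0.00662). It was at 0.683, 0 and 0.0646 CPM in the control libraries and 3.40, 0.817 and 0.062 CPM with ACSS2 shRNA, so pairs 1 and 2 were higher and pair 3 was not, on 88 counts in all. SCARA3, a scavenger receptor family member, was called lower (-0.59, SE 0.162, adjusted p = 0.02), at 61.0, 27.1 and 21.5 CPM in the controls and 29.1, 19.4 and 19.4 CPM with ACSS2 shRNA. Neither was called without the block. The call of SCARA3 was lost without replicate 1, and both calls on log2(TPM + 0.1). CTHRC1 was fitted in only 7 of the 8 paired alternatives. Of its 88 counts, 12 and 61 were in the control and ACSS2 shRNA libraries of replicate 1.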
